A study of Mus musculus with 9 samples.

Results

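Genes of cholesterol synthesis and of its control were described in the heart. The set held 8 named genes, matched by symbol among the 13890 genes of the deposited count table: Hmgcs1, Idi1, Fdps, Fdft1, Sqle and Lss, which encode enzymes of the pathway, and Srebf2 and Insig1, which encode parts of its sterol-sensing control. Other genes with these roles, among them lipoprotein receptors, were not analysed here as members. All 8 were detected in all libraries and all 8 were among the 13364 genes tested after the filter on low counts.

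RNA was sequenced in 9 libraries from hearts of male NSG mice, a severely immunodeficient strain that accepts human cells. The mice were 8 weeks old when the experiment began and were killed about 3 weeks later. Sham mice (S, 3 libraries) received saline into the spleen. Mice of the tumour group (T, 3 libraries) received HCT116 cells, a human colorectal cancer line, into the spleen, a route that seeds the liver. Mice of the third group (A + T, 3 libraries) received the same cells and weekly ACVR2B/Fc, a soluble activin receptor fused to an antibody Fc part, which binds activins and myostatin. No library labelled as ACVR2B/Fc without tumour cells was analysed here, so an effect of ACVR2B/Fc on its own cannot be told apart from an effect on tumour hosts. The model is 1 tumour line in immunodeficient males. The labels number the samples separately but do not call each an animal, so the P-values measure the spread between these libraries.

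The libraries labelled T carry a doubt about their label. The changes between the libraries labelled T and S differed from those that the study's own gene list gives for tumour hosts vs. sham, and were close to those it gives for ACVR2B/Fc without tumour cells vs. sham. For that reason T stands below for the label alone, in every direction that is given. A second doubt concerns airway and lung RNA: the summed level of the 2 listed airway and lung genes in the table was 80.5 CPM (counts scaled to the size of the library) in T replicate 2 and 1277 CPM in A + T replicate 3, against no more than 1.67 CPM in S. Values without both libraries are given where they alter a call of a member. Library totals lay between 12392222 and 19732471 counts, and 3 counts were worth 0.152 to 0.242 CPM. All 6 cardiomyocyte markers were present, as the label heart implies. Their summed level was 55669 to 61827 CPM in S, 42662 to 52534 CPM in T and 39716 to 55541 CPM in A + T. Every S library thus lay above every T and A + T library. Of the 6, 1 was called lower and 1 higher in T vs. S, beside 11.0% and 10.3% of all genes tested, and none in the other comparisons.

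Cells make cholesterol from acetyl-CoA through mevalonate, the isoprenoid chains, squalene and lanosterol. SREBP2, the product of Srebf2, is held in the endoplasmic reticulum by INSIG proteins and SCAP when sterols are plentiful. When sterols run low it moves to the Golgi, is cleaved, and enters the nucleus to raise transcription of nearly every enzyme of the pathway and of Insig1 and Srebf2 themselves. The heart makes some of its own cholesterol and also takes it up from lipoproteins, and the intermediates serve ubiquinone synthesis, protein prenylation and dolichol.

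The promoters are shown for 3 members whose levels differed between groups, as the stretch where SREBP proteins and their partners are known to bind. RefSeq sequences were at hand for 5 of the 8 members (Hmgcs1, Idi1, Lss, Srebf2 and Insig1), whereas Sqle, Fdps and Fdft1 are named only. Each stretch below is the 250 bases before the annotated start in GRCm38.p6, the assembly of mm10, on the plus strand, at chr13:119690101-119690350 for Hmgcs1, chr15:82147019-82147268 for Srebf2 and chr5:28071162-28071411 for Insig1. Capitals mark matches to the core of the sterol regulatory element (TCACCCCA), to the CCAAT box that NF-Y binds (CCAAT, read as ATTGG on the other strand) and to the E-box (CACGTG).
Hmgcs1: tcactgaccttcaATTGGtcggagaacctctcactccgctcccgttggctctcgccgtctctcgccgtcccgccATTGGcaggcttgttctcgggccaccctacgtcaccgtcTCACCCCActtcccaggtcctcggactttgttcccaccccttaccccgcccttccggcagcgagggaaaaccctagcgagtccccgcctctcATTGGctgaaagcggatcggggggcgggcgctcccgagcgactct
Srebf2: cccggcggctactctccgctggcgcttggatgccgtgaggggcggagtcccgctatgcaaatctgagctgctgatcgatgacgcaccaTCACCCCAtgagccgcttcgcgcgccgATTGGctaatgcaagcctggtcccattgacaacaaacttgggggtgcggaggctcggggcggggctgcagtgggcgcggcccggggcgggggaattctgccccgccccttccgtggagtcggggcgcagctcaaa
Insig1: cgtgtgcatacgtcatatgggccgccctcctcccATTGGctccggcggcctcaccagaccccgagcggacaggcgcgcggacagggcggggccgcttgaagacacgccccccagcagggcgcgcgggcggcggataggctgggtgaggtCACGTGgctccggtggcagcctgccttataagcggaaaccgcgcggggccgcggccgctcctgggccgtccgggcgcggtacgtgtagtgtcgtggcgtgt

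The core TCACCCCA began 137 bases before the start in Hmgcs1 and 162 bases before it in Srebf2. In Srebf2 a CCAAT box followed at 135 bases before the start. Hmgcs1 held 4 CCAAT boxes in the 300-base window that was searched, 250 bases before and 50 after the start, and the last of them lay past the start. Insig1 held a CCAAT box 216 bases and an E-box 101 bases before the start, and no TCACCCCA in this window. Idi1 had 2 CCAAT boxes and Lss had 1, with no TCACCCCA and no CACGTG in either window. Over 32851 promoters of the same length, searched on both strands, 1.56% held TCACCCCA, 37.4% held CCAAT and 7.15% held CACGTG. No match shown overlaps another. The motifs were chosen after these sequences had been seen, and a match is a description of letters and not a site.

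**Figure D1:**
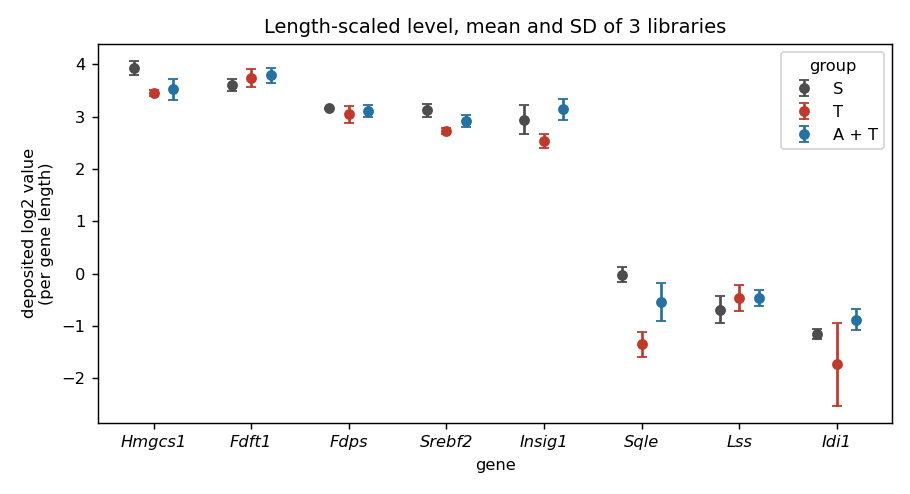
Deposited log2 value per gene length (vertical axis) of the 8 genes (horizontal axis) in S, T and A + T, as mean and SD of 3 libraries. The 5 genes from Hmgcs1 to Insig1 lie between 2.54 and 3.93, whereas Sqle, Lss and Idi1 lie at or below −0.02.

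The members fell into a high and a low class when levels were compared per gene length, on the deposited log2 scale. In S, Hmgcs1 stood highest at 3.93 ± 0.13 (SD, n = 3 for each value), followed by Fdft1 at 3.61 ± 0.12, Fdps at 3.16 ± 0.01, Srebf2 at 3.12 ± 0.12 and Insig1 at 2.94 ± 0.28. Sqle at −0.02 ± 0.14, Lss at −0.69 ± 0.26 and Idi1 at −1.15 ± 0.09 formed the low class. The neighbours Fdps, Srebf2 and Insig1 did not differ beyond their spread. In the plot of length-scaled levels the order changed in T, where Fdft1 at 3.74 ± 0.17 stood above Hmgcs1 at 3.45 ± 0.06, and Lss at −0.47 ± 0.25 stood above Sqle at −1.35 ± 0.24. In A + T Fdft1 was at 3.79 ± 0.14 and Hmgcs1 at 3.52 ± 0.20. These orders are a description with no test.

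In the libraries labelled T, 3 of the 8 members were lower than in S at an adjusted P-value under 0.05 (edgeR's quasi-likelihood test with Benjamini-Hochberg adjustment over all genes tested), namely Sqle, Hmgcs1 and Srebf2, and no member was higher. Of all genes tested, 11.0% were called lower and 10.3% higher in this comparison. The median log2 fold change was −0.41 over the 8 members and −0.004 over all genes tested. In 4 of the 8 members every T library lay below every S library, whereas 42.6% of all genes tested had no overlap in either direction. At the thresholds the study states, a change of at least 1.5-fold with P under 0.05 before adjustment, Sqle alone passed, and 14.2% of all genes passed.

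Insig1 was the 1 member called in A + T vs. T, and it was higher. Of all genes tested, 3.09% were called higher and 2.79% lower. Insig1, Sqle and Srebf2 were higher in every A + T library than in every T library, which makes 3 of 8 members, against 25.4% of all genes with no overlap in either direction. Sqle and Insig1 passed the study's thresholds, as did 8.10% of all genes. The median log2 fold change was 0.15 over the members and 0.01 over all genes. Hmgcs1 was the 1 member called in A + T vs. S, and it was lower, where 3.64% of all genes were called lower and 4.67% higher. Hmgcs1 and Sqle had no overlap, against 32.4% of all genes. No member passed the study's thresholds, which 8.91% of all genes did, and 1 member had an unadjusted P-value under 0.05. The 3 comparisons share libraries, so the values of a gene in them are not independent of each other.

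**Figure D2:**
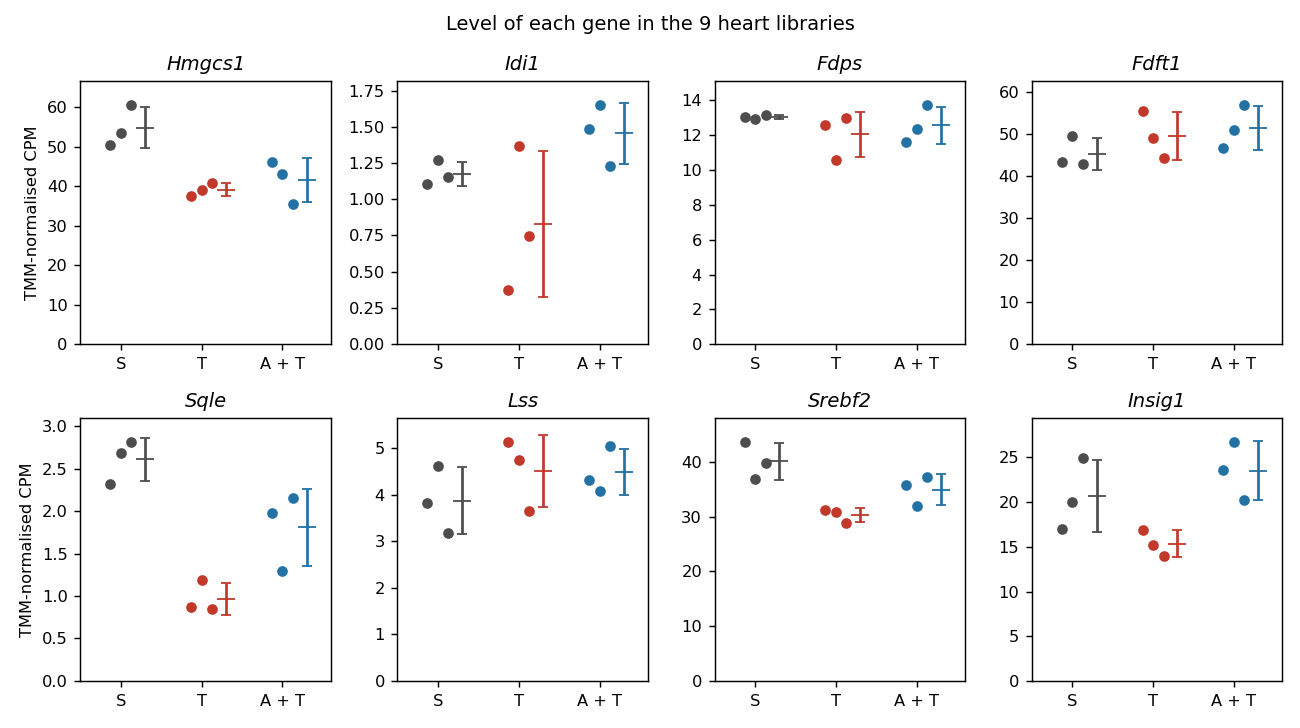
TMM-normalised CPM (vertical axes, each from 0) of the 8 genes in S, T and A + T, with 1 point per library and the mean and SD of 3 libraries beside them. All T points lie below all S points for Hmgcs1, Sqle, Srebf2 and Insig1, while the groups overlap for Idi1, Fdps, Fdft1 and Lss.

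Hmgcs1 encodes the cytosolic HMG-CoA synthase, which joins acetyl-CoA to acetoacetyl-CoA ahead of mevalonate, and lies on chromosome 13 from 119690351 to 119708260 (plus strand). Its level, in CPM after TMM scaling as for all levels that follow, was 50.4, 53.4 and 60.5 CPM in S, 37.5, 39.0 and 40.7 CPM in T and 46.1, 43.1 and 35.4 CPM in A + T. The S libraries were the 3 highest of the 9, and T and A + T overlapped. Averaged over 3 libraries with the SD, this was 54.8 ± 5.19 CPM for S, 39.1 ± 1.58 CPM for T and 41.5 ± 5.497 CPM for A + T. Hmgcs1 fell by 0.49 on the log2 scale in T vs. S (SE 0.11, adjusted P = 0.0100), or 28.6% lower. The difference of A + T from T was 0.09 (95% interval −0.15 to 0.33, adjusted P = 0.673). Hmgcs1 fell by 0.40 in A + T vs. S (SE 0.11, adjusted P = 0.0468). The T vs. S call stood in all 18 alternative settings, with a log2 fold change of −0.54 to −0.41. The A + T vs. S call stood in 4 of 18, of the libraries left out singly only without A + T replicate 1, and without either A + T replicate 3 or both libraries with airway and lung counts the value was −0.29 (adjusted P = 0.0853 and 0.0844).

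Idi1 encodes isopentenyl-diphosphate isomerase, which makes the allylic unit from which isoprenoid chains grow. It lies on chromosome 13 from 8885606 to 8892396 (plus strand), next to a close relative. Reads that match both genes would not be counted, since only uniquely mapped reads were assigned, and whether any were lost was not tested. It had the fewest counts of the 8 members, with 20, 25 and 16 counts in S, 6, 23 and 8 counts in T and 24, 23 and 20 counts in A + T. The T libraries spread widely, since T replicate 2 lay within the range of the other groups and the other 2 lay below them. Averaged over 3 libraries with the SD, this was 1.18 ± 0.08 CPM for S, 0.829 ± 0.502 CPM for T and 1.46 ± 0.211 CPM for A + T. The difference on the log2 scale was −0.49 in T vs. S (95% interval −1.38 to 0.41, adjusted P = 0.423), 0.79 in A + T vs. T (−0.10 to 1.67, adjusted P = 0.274) and 0.30 in A + T vs. S (−0.54 to 1.13). The values turned on T replicate 2. Without it Idi1 was at −1.13 in T vs. S (adjusted P = 0.0779) and at 1.43 in A + T vs. T (adjusted P = 0.0781). Without both libraries with airway and lung counts it was at −1.13 (adjusted P = 0.0630) and 1.54 (adjusted P = 0.0575), and in both settings it passed the study's thresholds in these 2 comparisons.

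Fdps encodes farnesyl diphosphate synthase, whose product feeds squalene as well as ubiquinone, dolichol and prenylated proteins, and lies on chromosome 3 from 89093588 to 89101967 (minus strand). Its level was 13.04, 12.94 and 13.16 CPM in S, 12.57, 10.58 and 12.999 CPM in T and 11.6, 12.3 and 13.7 CPM in A + T. The groups overlapped in every comparison, and the S libraries were almost alike with a coefficient of variation of 0.852%. The log2 fold change was −0.12 in T vs. S (95% interval −0.37 to 0.13, adjusted P = 0.495), 0.06 in A + T vs. T (−0.19 to 0.32) and −0.05 in A + T vs. S (−0.30 to 0.20).

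Fdft1 encodes squalene synthase, which commits farnesyl units to sterols, and lies on chromosome 14 from 63145150 to 63181687 (minus strand). Its level was 43.5, 49.7 and 42.8 CPM in S, 55.6, 49.2 and 44.2 CPM in T and 46.6, 51.0 and 57.0 CPM in A + T. The groups overlapped, and the mean was 49.7 ± 5.70 CPM in T against 45.3 ± 3.78 in S and 51.5 ± 5.198 in A + T (SD, n = 3). On the log2 scale the difference was 0.13 in T vs. S (95% interval −0.11 to 0.37, adjusted P = 0.412), 0.05 in A + T vs. T (−0.19 to 0.29) and 0.18 in A + T vs. S (−0.06 to 0.42, adjusted P = 0.309).

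Sqle encodes squalene monooxygenase, which puts the oxygen on squalene and is a rate-limiting step after mevalonate. It lies on chromosome 15 from 59315092 to 59331193 (plus strand). Its counts were low, with 42, 53 and 39 counts in S, 14, 20 and 9 counts in T and 32, 18 and 35 counts in A + T. The levels were 2.32, 2.69 and 2.82 CPM in S, 0.867, 1.19 and 0.842 CPM in T and 1.98, 1.29 and 2.16 CPM in A + T, so the 3 groups did not overlap. Sqle had the largest change of the 8 members in T vs. S, where it fell by 1.41 on the log2 scale (SE 0.27, adjusted P = 0.00530), or 2.66-fold lower. The call stood in all 17 alternative settings in which Sqle was tested, between −1.60 and −1.32, and a minimum of 10 counts in every library removed the gene. Between A + T and T the log2 fold change was 0.89 (95% interval 0.27 to 1.52), which did not pass (adjusted P = 0.0921, unadjusted P = 0.00954). Against S, A + T was at −0.52 (−1.08 to 0.04, adjusted P = 0.224), and without both libraries with airway and lung counts it was at −0.65 (adjusted P = 0.178) and passed the study's thresholds.

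Lss encodes lanosterol synthase, which closes the sterol rings, and lies on chromosome 10 from 76531565 to 76557139 (plus strand). Its level was 3.81, 4.62 and 3.18 CPM in S, 5.14, 4.75 and 3.65 CPM in T and 4.33, 4.09 and 5.05 CPM in A + T. The groups overlapped throughout. The log2 fold change was 0.22 in T vs. S (95% interval −0.22 to 0.67, adjusted P = 0.455), −0.02 in A + T vs. T (−0.46 to 0.42) and 0.21 in A + T vs. S (−0.23 to 0.65). Thus of the enzymes, the step before mevalonate and the oxygenation of squalene had lower transcript levels in T, and neither Fdft1 nor Lss, which stand on each side of Sqle in the pathway, passed the test.

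Srebf2 encodes the transcription factor SREBP2 and lies on chromosome 15 from 82147269 to 82205379 (plus strand). Its level was 43.7, 36.9 and 39.7 CPM in S, 31.2, 30.9 and 28.9 CPM in T and 35.7, 31.9 and 37.2 CPM in A + T. The T libraries were the 3 lowest of the 9, whereas S and A + T overlapped. Srebf2 fell by 0.40 on the log2 scale in T vs. S (SE 0.09, adjusted P = 0.0115), or 24.2% lower. The call stood in 16 of 18 alternative settings and was lost without S replicate 1 (−0.33, adjusted P = 0.0553) and with library size as the only scaling (−0.43, adjusted P = 0.0674). Between A + T and T the log2 fold change was 0.20 (95% interval 0.00 to 0.40, adjusted P = 0.223), and in A + T vs. S it was −0.20 (−0.40 to 0.00, adjusted P = 0.195). Transcript level does not tell how much SREBP2 was cleaved.

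Insig1 encodes the endoplasmic reticulum anchor of the SREBP and SCAP complex, and its transcript is itself a target of the nuclear SREBP. It lies on chromosome 5 from 28071412 to 28078662 (plus strand). Its level was 16.97, 19.99 and 24.94 CPM in S, 16.91, 15.21 and 13.93 CPM in T and 23.6, 26.8 and 20.2 CPM in A + T. The T libraries were the 3 lowest, although the highest of them was close to the lowest S library. Insig1 rose in A + T vs. T by 0.61 on the log2 scale (SE 0.15, adjusted P = 0.0458), or 1.53-fold. This call stood in 9 of 18 alternative settings and in 3 of the 9 that left out a library, with a log2 fold change of 0.51 to 0.70 and an adjusted P of 0.0114 to 0.123. It was lost without S replicate 2, without any of the T replicates and without A + T replicate 1 or 2. In T vs. S the log2 fold change was −0.42 (95% interval −0.76 to −0.08), which did not pass (adjusted P = 0.0790), and it passed in 1 of 18 settings, without S replicate 1 (adjusted P = 0.0453). Against S, A + T was at 0.19 (−0.14 to 0.53, adjusted P = 0.448).

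**Figure D3:**
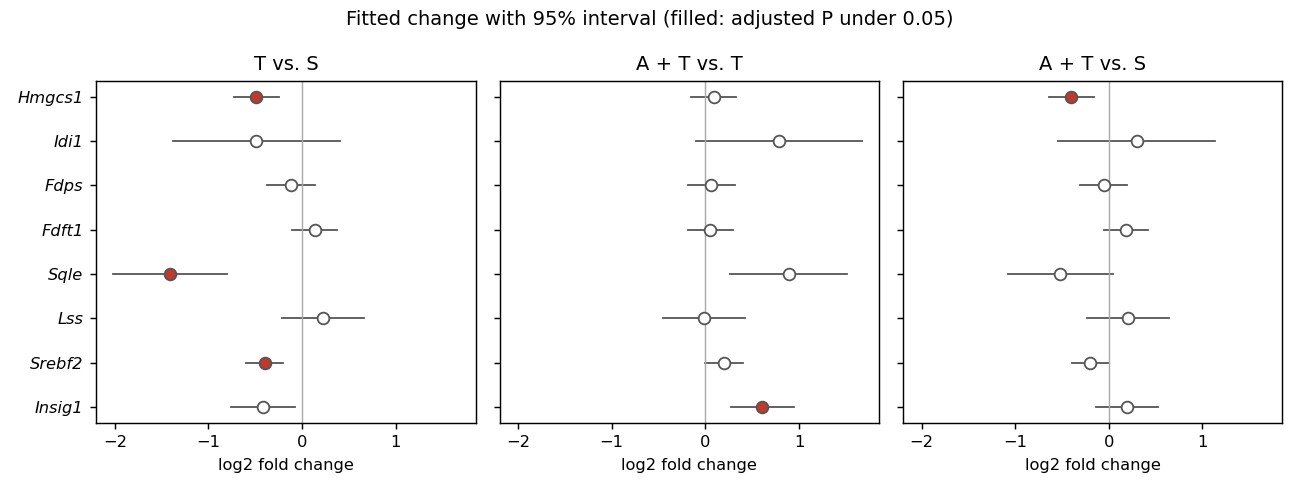
Fitted log2 fold change (horizontal axes) of the 8 genes, with 1 panel per comparison, bars for the 95% interval and filled points for an adjusted P-value under 0.05. Sqle has the lowest value in T vs. S at −1.41, and its value is 0.89 in A + T vs. T.

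The members did not vary together as a block over the 9 libraries. Of their 28 pairs, 7 had a Pearson r above 0.5 and 2 were below −0.5, given as a description because the libraries share their groups. Sqle and Srebf2 were the closest pair (r = 0.89), followed by Fdft1 and Lss (r = 0.88). Hmgcs1 ran opposite to Fdft1 (r = −0.71) and to Lss (r = −0.69). With the mean standardised profile of all 8 members, which includes the gene itself, r was 0.89 for Sqle, 0.77 for Srebf2 and 0.72 for Insig1, but 0.12 for Fdft1 and 0.005 for Lss. Among all other genes tested, the profiles most like this mean over the 9 libraries were those of Cmpk2 (r = 0.99), Ces1d (0.98), Ei24 (0.98), Sept4 (0.97), Angpt2 (0.97), Dok2 (0.97), Zfp365 (0.96), Atg9b (0.96), Arsa (0.96) and Dck (0.96).

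The rest of the pathway was read from lists of 55 further genes, of which 54 were tested and Lrp8 was not. In T vs. S, 8 of the 54 were called lower and 4 higher, with a median log2 fold change of −0.09. These are 14.8% and 7.41% of the list, beside 11.0% and 10.3% of all genes tested. Between A + T and T, 2 were called lower and 1 higher (median 0.02), and between A + T and S, 2 were called lower and 0 higher (median −0.07), again beside the 2.79% and 3.09%, and the 3.64% and 4.67%, of all genes. At an unadjusted P-value under 0.05 there were 22, 16 and 12 genes in the 3 comparisons, or 40.7%, 29.6% and 22.2% of the list, beside 35.4%, 22.4% and 26.1% of all genes tested. These shares lie near those of all genes.

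**Figure D4:**
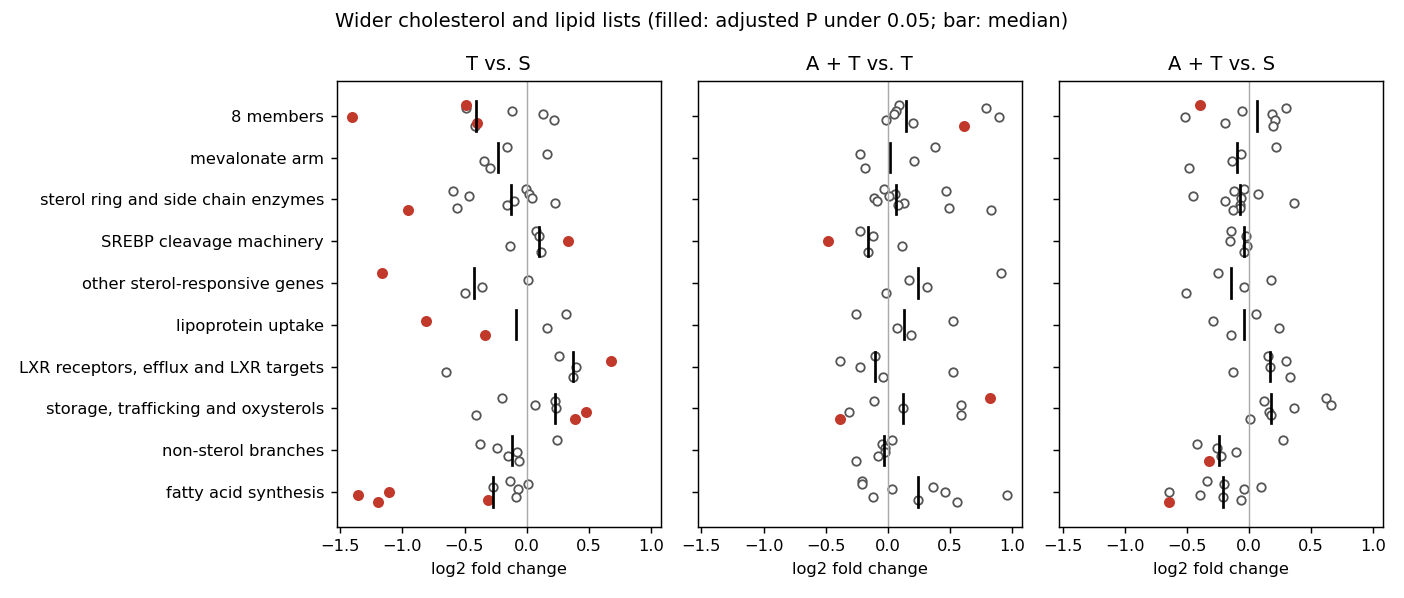
Log2 fold change (horizontal axes) of the 8 members and of 54 further genes in 9 lists (vertical axis) in the 3 comparisons, with 1 point per gene, filled at an adjusted P-value under 0.05, and a bar at each list's median. In T vs. S 4 of the 9 genes of fatty acid synthesis are called lower, beside 11.0% of all genes tested, and the LXR list has a median of 0.37.

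Among the other enzymes of the mevalonate arm none of 4 was called in T vs. S (median −0.23, with 1 at an unadjusted P-value under 0.05). The extremes were Mvk, mevalonate kinase, at 0.17 (adjusted P = 0.480), and Pmvk, phosphomevalonate kinase, at −0.35 (adjusted P = 0.0570). The 10 enzymes of the sterol ring and side chain had a median of −0.13 in T vs. S, and none was called higher. The highest of them, Ebp, the sterol isomerase, was at 0.23 (adjusted P = 0.142).

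Of 5 genes of the SREBP cleavage machinery, 1 was called higher in T vs. S and none lower (median 0.10). This was Srebf1, which encodes SREBP1, the relative of SREBP2 that acts mainly on fatty acid genes. Its level was 57.3, 45.7 and 44.5 CPM in S, 61.1, 61.9 and 63.1 CPM in T and 44.9, 43.2 and 45.0 CPM in A + T, so the T libraries were the 3 highest. Srebf1 rose by 0.33 in T vs. S (SE 0.10, adjusted P = 0.0319) and fell by 0.48 in A + T vs. T (SE 0.10, adjusted P = 0.0207), calls that stood in 4 and 5 of the 9 settings that left out a library. Srebf1 and Srebf2 thus stood on opposite sides of S in the libraries labelled T. The lowest of the list, Mbtps1, the site-1 protease, was at −0.13 (adjusted P = 0.214).

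Of 4 other sterol-responsive genes, 1 was called lower in T vs. S (median −0.43). This was Stard4, a cytosolic sterol carrier, with 6.08, 7.15 and 5.06 CPM in S, 1.80, 2.79 and 3.74 CPM in T and 5.07, 5.45 and 4.93 CPM in A + T. All T libraries lay below all others. Stard4 fell by 1.16 in T vs. S (SE 0.24, adjusted P = 0.00775), a call that stood in all 9 settings that left out a library, and was at 0.91 in A + T vs. T (adjusted P = 0.0567). Tmem97, a sterol-regulated membrane protein, was at 0.01 in T vs. S (adjusted P = 0.971).

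Of 4 tested genes of lipoprotein uptake, 2 were called lower in T vs. S (median −0.08). Lrp1, a large receptor for remnants and many other ligands that fibroblasts also express, fell by 0.81 (SE 0.23, adjusted P = 0.0323), from 230 CPM on average in S to 131 CPM in T. Scarb1, the HDL receptor, fell by 0.33 (SE 0.10, adjusted P = 0.0327), from 23.6 CPM to 18.7 CPM. Each of these calls stood in 4 of the 9 settings that left out a library. Vldlr, the receptor for triglyceride-rich lipoproteins, was at 0.31 (adjusted P = 0.0541). None of the 4 was called in the other comparisons.

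Other lists covered sterol efflux, storage and trafficking. Of 5 genes of the LXR receptors, efflux and LXR targets, 1 was called higher in T vs. S and none lower (median 0.37, with 4 at an unadjusted P-value under 0.05). Over all genes tested, 10.3% were called higher and 35.4% had an unadjusted P-value under 0.05. Nr1h3, the oxysterol receptor LXR alpha, had 16.9, 13.5 and 13.5 CPM in S, 21.6, 25.4 and 23.3 CPM in T and 16.8, 15.9 and 21.1 CPM in A + T. It rose by 0.68 in T vs. S (SE 0.13, adjusted P = 0.00593), in all 9 settings that left out a library, and was at −0.38 in A + T vs. T (adjusted P = 0.121). Abcg1, a sterol exporter, was at −0.65 in T vs. S (95% interval −1.32 to 0.02, adjusted P = 0.152).

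Of 7 genes of storage, trafficking and oxysterols, 2 were called higher in T vs. S and none lower (median 0.23). Osbp, the oxysterol-binding protein, rose by 0.48 (SE 0.10, adjusted P = 0.00781) and Cyp27a1, sterol 27-hydroxylase, rose by 0.39 (SE 0.08, adjusted P = 0.00780), both in all 9 settings that left out a library. Cyp27a1 fell by 0.38 in A + T vs. T (adjusted P = 0.0270), with a mean of 24.4 CPM for S, 32.0 CPM for T and 24.5 CPM for A + T. Soat1, which esterifies cholesterol for storage and is abundant in macrophages, rose by 0.82 in A + T vs. T (SE 0.20, adjusted P = 0.0397), a call that stood in 1 of 9 settings that left out a library. Ch25h, cholesterol 25-hydroxylase, was at −0.41 in T vs. S (adjusted P = 0.673) from under 1.0 CPM in each group.

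Levels of markers of other cell types moved between the same groups. The summed level of 5 fibroblast markers was 1334 to 1534 CPM in S, 805 to 933 CPM in T and 1023 to 1493 CPM in A + T, and 5 of 5 were called lower in T vs. S and 3 higher in A + T vs. T. The summed level of 5 endothelial markers was 709 to 836 CPM in S, 443 to 554 CPM in T and 558 to 662 CPM in A + T, with 3 of 5 lower in T vs. S and 1 higher in A + T vs. T. The 7 macrophage markers summed to 233 to 245 CPM in S, 242 to 271 CPM in T and 311 to 397 CPM in A + T, with 5 of 7 higher in A + T vs. T. Against S, 6 of 7 were called higher in A + T and 1 in T. In A + T vs. S, 1 of 5 endothelial markers was called lower, and no fibroblast marker was called. Over all genes tested, 11.0% were called lower and 10.3% higher in T vs. S, and 3.09% higher in A + T vs. T. The shares in A + T vs. S were 3.64% lower and 4.67% higher. No listed marker of these 3 types was at 0 in every library. The part of these cells in the levels of the members and of Lrp1, Scarb1 and Soat1 was not tested, and in heart tissue fewer cells of a type and less RNA per cell cannot be told apart. The summed level of 5 atrial markers was 2999 to 3083 CPM in S, 861 to 4552 CPM in T and 793 to 2054 CPM in A + T. Their median log2 fold change was −0.84 in T vs. S, with 1 of 5 called lower, and −1.06 in A + T vs. S, with none called. Whether the libraries held unlike shares of atrium was not tested.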

How the data were processed

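The authors extracted total heart RNA, enriched mRNA, sequenced 75-base paired ends, mapped them with STAR (mm10) and assigned uniquely mapped, strand-specific reads to refGene genes. The deposited counts are raw reads per gene, and the authors' table lists 13890 genes. The deposited log2 values equal log2 CPM plus a constant per gene, which ran with the gene's exonic length (Pearson r = 0.892 over 9654 genes), and a constant per library, which matched the TMM factors. They served to compare levels between genes and in the limma alternative. Genes with CPM under 0.5 in more than 4 of 9 libraries were left out, as in the study's methods. Counts were fitted with edgeR 4.0.16 (R 4.3.3) by TMM and quasi-likelihood over all 9 libraries, for the 3 pairs of groups, with Benjamini-Hochberg adjustment over 13364 genes. Alternatives used DESeq2 1.42.0, limma 3.58.1, other scalings, filters and thresholds, and each library left out. A setting without both libraries that held airway and lung counts was chosen after seeing the data. The scripts were tested on simulated data. Libraries took their groups from the labels. Pairs of libraries within a group differed by more than counting noise (chi-square of at least 7.48 per gene, on raw counts with Rn45s included). This cannot show that they come from separate animals, since separate preparations of 1 RNA can also differ by more. Each library counted as 1 sample, as the labels number them, and 3 against 3 allow an exact two-sided permutation P-value of at least 0.1.

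All 8 members are described. For the wider lists, the genes named are the lowest and highest in T vs. S in each list and any called, apart from a gene that is not reported here. The 10 genes named for likeness had the highest r. The members and lists were chosen with earlier results of these data known. Gene positions and promoters are from RefSeq and GENCODE M21 (GRCm38.p6). Rn45s, a ribosomal RNA gene, took 4.57% to 19.6% of the counts of a library.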

Additional observations from a re-analysis of the deposited data

How the results depend on the processing

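Of 426 log2 fold changes of the members recomputed under the alternatives, 388 kept their direction and side of the threshold. Most of these had no call in the main fit, so staying uncalled was enough. Of the others, 25 lost a call of the main fit, 1 gained a call and 12 changed sign. The calls for Hmgcs1 and Sqle in T vs. S stood in all settings that tested them, and that for Srebf2 in 16 of 18. The call for Insig1 in A + T vs. T stood in 9 of 18, and that for Hmgcs1 in A + T vs. S in 4 of 18. In T vs. S, 2 members were called with library size only and with a minimum of 10 counts in every library, which removed Sqle, 4 at an adjusted P-value under 0.1 and 3 in each other setting, though without S replicate 1 the third was Insig1 in place of Srebf2. With each library left out in turn, the members called numbered 3 in T vs. S, 0 to 1 in A + T vs. T and 0 to 1 in A + T vs. S, those at the study's thresholds 1 to 2, 1 to 3 and 0 to 1, and the wider-list genes called 5 to 14, 0 to 4 and 0 to 3. No member was called in A + T vs. T with library size only, with no filter on low counts or with only the 2 groups compared (0 each), nor in A + T vs. S with upper-quartile scaling, library size only, only the 2 groups compared, limma, without Rn45s or without both libraries with airway and lung counts (0 each). At an adjusted P-value under 0.1, 2 members were called in A + T vs. T. The number of all genes called moved with the settings as well. In T vs. S it was 2837 of 13364 in the main fit, 3959 at an adjusted P-value under 0.1 and 1637 with library size only. In A + T vs. T it was 786 in the main fit and 1499 at an adjusted P-value under 0.1. There it was 1200 with DESeq2, 438 with library size only and 217 with only the 2 groups compared. At the study's thresholds, a minimum of 10 counts in every library left 0 members in T vs. S and 1 in A + T vs. T, no limit on the fold change gave 4 in T vs. S and 1 in A + T vs. S, and leaving out both libraries with airway and lung counts gave 2 and 1. With no limit on the fold change, 4731 of all genes tested passed in T vs. S and 3489 in A + T vs. S. Wider-list genes called in T vs. S numbered 7 with library size only. Against T, in A + T, they numbered 7 with DESeq2, 0 with library size only, 1 with only the 2 groups and 8 at an adjusted P-value under 0.1. Against S they numbered 0 with library size only and with only the 2 groups, 6 at an adjusted P-value under 0.1 and 1 without Rn45s. Signs turned only near 0 and without a call. Lss in A + T vs. T was at 0.029 with upper-quartile scaling and at −0.14 to 0.086 with libraries left out. Fdps was at −0.095 and Fdft1 at −0.041 without both libraries with airway and lung counts, and with single libraries left out they lay at −0.024 to 0.12 and −0.032 to 0.14. Fdps in A + T vs. S was at −0.12 to 0.00045 with libraries left out. The cause of these shifts was not tested, apart from fewer samples or genes. The split of all genes called higher and lower moved with the scaling, from 1371 and 1466 to 585 and 1052 with library size only in T vs. S, and from 413 and 373 to 497 and 262 with upper-quartile scaling or 314 and 124 with library size only in A + T vs. T. Counts were 6 to 25 per library for Idi1 and 9 to 53 for Sqle. No paired analysis was possible because the labels do not pair libraries of different groups.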

Other observations

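Of 9 genes of fatty acid synthesis, which answer mainly to SREBP1, 4 were called lower in T vs. S and none higher (median log2 fold change −0.27). Over all genes tested, 11.0% were called lower and 10.3% higher in T vs. S. Elovl6, which lengthens palmitate, fell by 1.35 (SE 0.34, adjusted P = 0.0171, edgeR), with 53, 38 and 51 counts in S, 15, 26 and 8 counts in T and 38, 24 and 38 counts in A + T. Fads2, the delta-6 desaturase, fell by 1.20 (SE 0.18, adjusted P = 0.00134), from 11.7, 10.3 and 8.82 CPM in S to 3.90, 4.40 and 5.24 CPM in T, and this call stood in all 9 settings that left out a library. In A + T Fads2 was at 5.996, 6.03 and 7.76 CPM, between the other groups, and it fell by 0.64 in A + T vs. S (adjusted P = 0.0445), a call that stood in 2 of those 9 settings. Scd2, a stearoyl-CoA desaturase, fell by 1.11 in T vs. S (SE 0.34, adjusted P = 0.0423) and Fads1, the delta-5 desaturase, fell by 0.31 (SE 0.10, adjusted P = 0.0456), and these calls stood in 4 and 2 of the 9 settings. The call for Elovl6 stood in 5 of them. The 5 others did not pass, among them Acaca, which makes malonyl-CoA, at 0.01 (adjusted P = 0.968), the desaturase gene Scd1 at −0.07 (adjusted P = 0.923) and Acly, ATP citrate lyase, at −0.27 (95% interval −0.53 to −0.01, adjusted P = 0.124). Scd1 and Acly were chosen after their values were seen. The level of Scd2 was uneven within groups, with 59.1 CPM in T replicate 2 against 28.7 and 27.1 CPM in the other T libraries, and 82.8 CPM in A + T replicate 3 against 40.7 and 35.5 CPM in the other A + T libraries. These are the 2 libraries with airway and lung counts, and T replicate 2 also stood apart in adipocyte markers, with a summed level of 78.1 CPM against 6.38 and 1.496 CPM in the other T libraries, 1.22 to 18.4 CPM in S and 1.36 to 7.70 CPM in A + T. The same library was the highest in the summed level of 6 hepatocyte markers, at 60.8 CPM against 23.6 and 12.7 CPM in the other T libraries. These markers summed to 26.2 to 31.2 CPM in S and 6.96 to 28.0 CPM in A + T. T replicate 2 was also the highest in atrial markers, at 4552 CPM. The part of such RNA in the levels of Scd2 and of the members was not tested. Srebf1 itself was higher in T, as given above.

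Of 6 genes of the non-sterol branches, which lead from mevalonate to ubiquinone, dolichol and geranylgeranyl chains, none was called in T vs. S (median −0.12, with 1 at an unadjusted P-value under 0.05). The extremes were Ggps1, geranylgeranyl diphosphate synthase, at 0.25 (adjusted P = 0.251), and Pdss1, which builds the ubiquinone side chain, at −0.38 (adjusted P = 0.143). Nus1, a subunit of the enzyme that makes dolichol chains, fell by 0.32 in A + T vs. S (SE 0.09, adjusted P = 0.0482), from 84.3, 76.3 and 80.1 CPM in S to 63.9, 71.0 and 58.1 CPM in A + T, and this call stood in 1 of the 9 settings that left out a library.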
